A study of Homo sapiens with 4 samples.

Results

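TXNIP, its alpha-arrestin paralogs ARRDC1, ARRDC2, ARRDC3 and ARRDC4, and the glucose-sensing transcription factors MLXIP (MondoA) and MLXIPL (ChREBP) form the set of 7 genes described here, out of 60558 gene identifiers in the files. They were listed by name and chosen by the log2 fold changes of myr-AKT1 over vector that these same libraries had already given, so those values stand as a description and carry no p-value. The libraries came from A549 and HCC827, established human lung adenocarcinoma (LAD) cell lines, each transduced either with an empty vector or with myr-AKT1, a form of AKT1 with an added myristoylation signal, held at the membrane and constitutively active. RNA of each condition was sequenced once (the A549-vector and A549-myr-AKT1 libraries, and likewise those named HCC827-vector and HCC827-myr-AKT1), so that no difference within a line has a replicate check. Both lines are tumor lines grown in culture, and whether the engineered cells were pools or single clones is not given in the sources used here.

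In GRCh38, TXNIP (ENSG00000265972) lies on the minus strand of chromosome 1 from 145992435 to 145996579, and MLXIPL (ENSG00000009950) on the minus strand of chromosome 7 from 73593194 to 73624543. ARRDC1 (ENSG00000197070) spans 137605685 to 137615360 on chromosome 9, ARRDC2 (ENSG00000105643) 18001132 to 18014102 on chromosome 19 and ARRDC4 (ENSG00000140450) 97960703 to 97973833 on chromosome 15, each on the plus strand. ARRDC3 (ENSG00000113369) spans 91368631 to 91383317 on the minus strand of chromosome 5, and MLXIP (ENSG00000175727) 122078756 to 122147344 on the plus strand of chromosome 12. All are annotated as protein-coding.

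Alpha-arrestins are adaptor proteins that share the arrestin fold, bind transporters and receptors at membranes and recruit ubiquitin ligases of the NEDD4 family to them. TXNIP, the best known of them, also binds reduced thioredoxin, restrains its activity and promotes removal of glucose transporters from the cell surface. MondoA and ChREBP pair with MLX, enter the nucleus when glucose-6-phosphate accumulates, and activate TXNIP and ARRDC4 through carbohydrate response elements, which are paired E-box-like sequences. FOXO factors, which AKT phosphorylates and keeps out of the nucleus, are another known input to TXNIP.

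Promoter sequence of TXNIP and ARRDC4 is printed because these are the members with the largest fold changes in both lines, and because MondoA and ChREBP are known to act through elements there. Sequences are from RefSeq, build GRCh38.p14, each 5′ to 3′ on the strand of its gene, with capitals marking matches to the motifs defined after them. The TXNIP stretch lies on the minus strand at chr1:145996639-145996754, 116 bases that end 60 bases upstream of the start site, and the ARRDC4 stretch on the plus strand at chr15:97960478-97960653, 176 bases that end 50 bases upstream. No annotated exon overlaps either of them.
TXNIP: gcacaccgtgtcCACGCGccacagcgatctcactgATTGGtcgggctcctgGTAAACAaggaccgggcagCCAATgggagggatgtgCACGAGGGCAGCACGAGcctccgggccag
ARRDC4: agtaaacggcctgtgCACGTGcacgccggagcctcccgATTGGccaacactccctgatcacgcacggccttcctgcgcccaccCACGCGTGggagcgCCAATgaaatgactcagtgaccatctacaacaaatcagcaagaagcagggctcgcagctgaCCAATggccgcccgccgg

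The motifs were searched on both strands in windows of 250 bases before to 50 bases after each RefSeq start, and all 7 members matched the table, with 10 windows between them. A paired element, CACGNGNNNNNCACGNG, was found in TXNIP alone among the members, from 88 to 72 bases upstream of its start, and in 20 of 35116 windows of all genes (0.057%). No other form or spacing of a paired element was searched, in ARRDC4 or elsewhere. The E-box CACGTG was found in ARRDC4 alone among the members, 210 bases upstream, whereas 7.26% of all windows hold it. The FOXO element GTAAACA was present in TXNIP, starting 124 bases upstream, and in ARRDC3, on the opposite strand 29 bases upstream of its second RefSeq start and within an annotated ARRDC3 exon. It is held by 3.42% of all windows. CCAAT, the core of the site bound by NF-Y, which reads as its reverse complement where it lies on the opposite strand, was present in 6 of the 7 members and in 34.6% of all windows, with 2 copies in TXNIP and 3 in ARRDC4. CACGNG, a single copy of the element that is repeated in the paired motif, was added after the windows had been read. It overlaps both the paired motif and CACGTG, was present in TXNIP, ARRDC2, ARRDC3 and ARRDC4, and is held by 30.5% of all windows. A member was scored as holding a motif if any of its windows did, and TXNIP, ARRDC2 and ARRDC3 have 2 windows each. Member counts by gene are thus not on the scale of the shares by window. For ARRDC2, CCAAT was only in the window of its second start, where an ARRDC2 exon overlaps the upstream bases. A match is a description of letters and not of binding, and the windows do not cover distant elements.

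**Figure D1:**
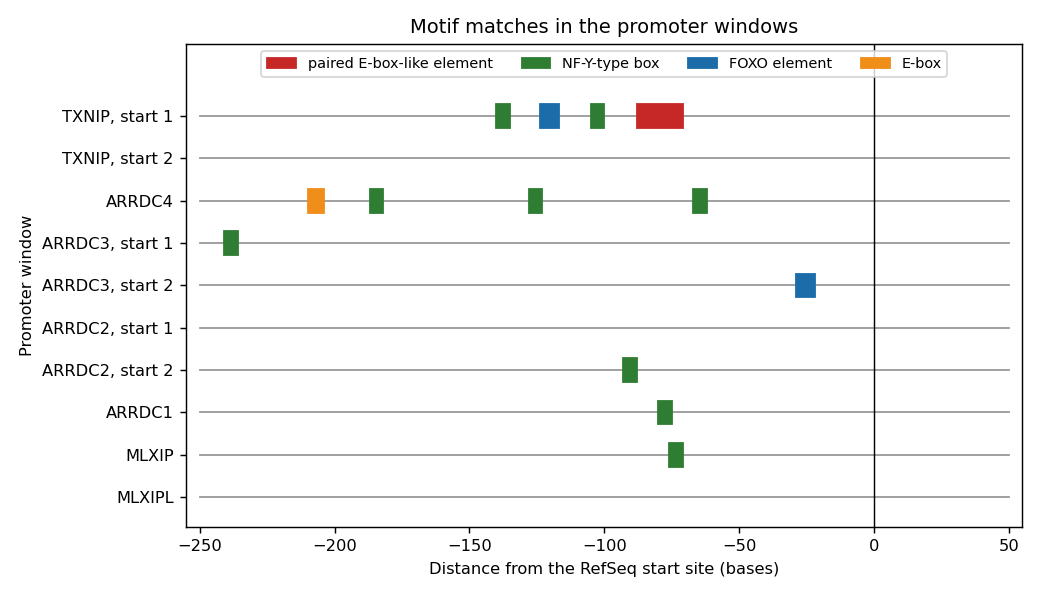
Motif matches in the 10 promoter windows of the 7 genes, plotted by distance in bases from the RefSeq start site (vertical line), with one row per start. The paired E-box-like element is seen in TXNIP only, from 88 to 72 bases upstream, and the E-box in ARRDC4 only, while NF-Y-type boxes (CCAAT) are in 6 of the 7 genes.

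The 4 libraries held between 16322183 and 33530317 reads after the deposited values were converted back to whole reads. AKT1 itself had 4243 normalized counts in A549-vector and 6297 in A549-myr-AKT1, and 2175 in HCC827-vector against 4805 in HCC827-myr-AKT1, where transgene and endogenous transcripts were counted together. As checks of the line labels, CDKN2A was at 0 reads in both A549 libraries and at 3452 and 2586 normalized counts in HCC827, and EGFR was at 7500 and 8454 normalized counts in A549 but 153714 and 68423 in HCC827. All 6 epithelial markers had reads in every library (summed level of 87555 to 194098 normalized counts), with the lowest sum in HCC827-myr-AKT1. Of the 6, 2 were above a log2 fold change of 1 in A549 (CDH1 at 1.39 and KRT19 at 2.65), beside 14.8% of all genes, and 0 below -1. In HCC827, 2 were below -1 (KRT8 at -1.81 and KRT18 at -1.75), beside 12.4% of all genes, and 0 above 1. Of 8 markers of blood, endothelial and stromal cells, 6 or 7 had reads in a library, CD3E was at 0 in all 4, and their summed level was 44.5 in A549-vector, 526 in A549-myr-AKT1, 81.1 in HCC827-vector and 147 in HCC827-myr-AKT1. LUM, a matrix proteoglycan of stromal cells, gave 348 of the counts in A549-myr-AKT1 against 22.7 in A549-vector, and LYZ, the lysozyme of myeloid cells, 79.0 against 2.62. Counted genes had a mean of at least 10 normalized counts in the line and reads with both vector and myr-AKT1. All 3 counted markers of this list were above a log2 fold change of 1 in A549, beside 14.8% of all genes. They were LUM, LYZ and PECAM1 (an endothelial adhesion molecule, 11.4 and 69.9 normalized counts). LYZ, at 3 reads in A549-vector, met the filter only through A549-myr-AKT1, so nothing is read from this count. PTPRC, the pan-leukocyte marker, had 1 and 7 reads in A549-vector and A549-myr-AKT1, and DCN, a stromal proteoglycan, 0 and 13 reads. In HCC827, VWF, an endothelial glycoprotein, was the 1 of 2 counted markers above 1, beside 14.0% of all genes. It had only 10 and 15 reads (7.95 and 18.9 normalized counts) with vector and myr-AKT1. Its log2 fold change of 1.25 had a counting interval of -0.003 to 2.56, which includes 0. The part of these genes in the results below was not tested.

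The pair of libraries in each line addresses which transcripts differ when AKT1 is constitutively active. TXNIP was higher with myr-AKT1 in both lines. It had 115 normalized counts (132 reads) in A549-vector cells and 3188 (2784 reads) in A549-myr-AKT1 cells, against 2278 (2866 reads) in HCC827-vector cells and 20242 (16087 reads) in HCC827-myr-AKT1 cells. A normalized count is the deposited value, a read count divided by one size factor per library, and the factors were set within each cell line. The vector library was the lower one in each line, and A549-vector was the lowest of all. The ratio of myr-AKT1 to vector was 27.7-fold in A549 and 8.89-fold in HCC827. On the log2 scale these are 4.79 in A549 (95% counting interval 4.54 to 5.05) and 3.15 in HCC827 (3.09 to 3.21). These Clopper-Pearson intervals cover counting error only and not the variation between cultures, and in bulk RNA a change in the share of expressing cells and a change in RNA per cell cannot be told apart. The A549 value exceeded the HCC827 value by 1.64 on the log2 scale (counting interval 1.38 to 1.90), a difference with no replicate behind it.

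ARRDC4, the paralog that shares glucose-dependent control with TXNIP, showed folds of similar size in the 2 lines. Its normalized count was 46.3 (53 reads) in A549-vector, 553 (483 reads) in A549-myr-AKT1, 173 (218 reads) in HCC827-vector and 1641 (1304 reads) in HCC827-myr-AKT1. As with TXNIP, each vector library was below its myr-AKT1 partner, and A549-vector was the lowest. The log2 fold change was 3.58 (3.17 to 4.02) in A549 and 3.24 (3.04 to 3.46) in HCC827, or 12.0-fold and 9.47-fold. Their difference of 0.34 had a counting interval of -0.12 to 0.79, which includes 0 and which also allows a larger fold in A549.

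**Figure D2:**
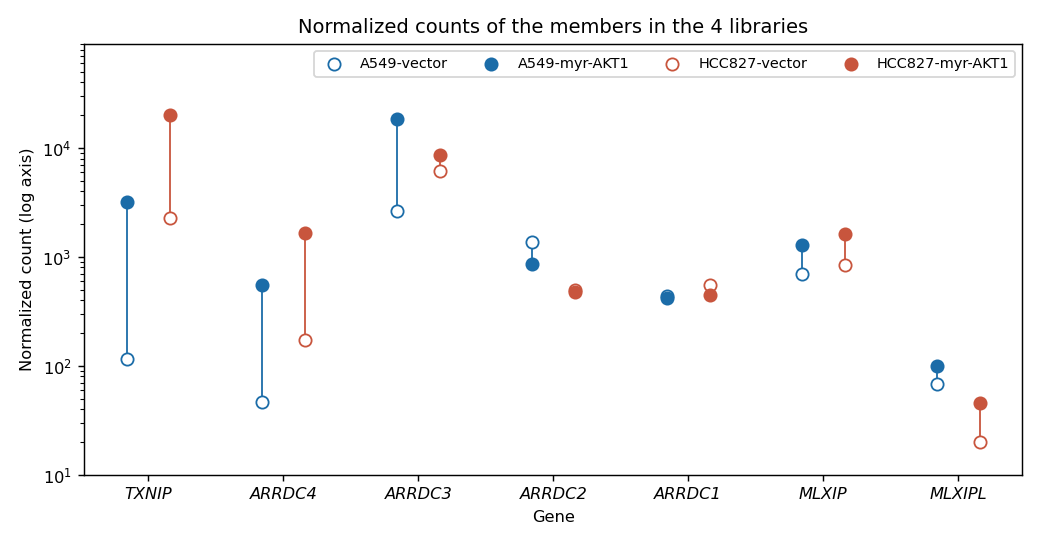
Normalized counts (log axis) of the 7 genes in the 4 libraries, with open circles for vector, filled circles for myr-AKT1 and a line joining the pair of each cell line (1 library per point, no error bar). TXNIP and ARRDC4 are higher with myr-AKT1 in both lines, ARRDC3 differs mainly in A549, and the pairs of ARRDC1 lie close together.

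ARRDC3, which promotes degradation of beta-adrenergic receptors and integrin subunits, differed far more in A549 than in HCC827. Its normalized counts were 2663 (3050 reads) in A549-vector and 18407 (16074 reads) in A549-myr-AKT1, a log2 fold change of 2.79 (2.73 to 2.85), or 6.91-fold. In HCC827 cells they were 6188 (7787 reads) with vector and 8689.9 (6906 reads) with myr-AKT1, a log2 fold change of 0.49 (0.44 to 0.54), or 1.40-fold. Both lines had the higher level in the myr-AKT1 library, but the A549 log2 fold change exceeded that of HCC827 by 2.299 (2.23 to 2.37), the widest gap between the lines among the 7 genes. ARRDC3-AS1, a lncRNA gene on the opposite strand that overlaps ARRDC3, had at most 99.6 normalized counts in any library.

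ARRDC2 and ARRDC1 did not share this pattern. ARRDC2, a less studied member of the family, had 1359 normalized counts (1556 reads) in A549-vector, 855 (747 reads) in A549-myr-AKT1, 492 (619 reads) in HCC827-vector and 473 (376 reads) in HCC827-myr-AKT1. It was lower with myr-AKT1 in A549, where the log2 fold change was -0.67 (-0.80 to -0.54). The HCC827 value was -0.06, and 0 lay within its interval (-0.24 to 0.13). ARRDC1, which drives budding of vesicles from the plasma membrane, had 433 (496 reads), 424 (370 reads), 549.2 (691 reads) and 445 (354 reads) normalized counts, in the order vector then myr-AKT1 for A549 and then for HCC827. Its log2 fold changes were -0.03 (-0.23 to 0.17) in A549 and -0.30 (-0.49 to -0.12) in HCC827. ARRDC1-AS1, on the opposite strand and overlapping ARRDC1, had 323 to 447 normalized counts, a level like that of ARRDC1, and whether the authors' counting used strand is not given in the sources used here. The ARRDC1 values are therefore uncertain.

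Both glucose-sensing factors had higher mRNA with myr-AKT1, by less than TXNIP or ARRDC4. MLXIP, which encodes MondoA, had 692 normalized counts (793 reads) in A549-vector, 1273 (1112 reads) in A549-myr-AKT1, 844 (1062 reads) in HCC827-vector and 1616 (1284 reads) in HCC827-myr-AKT1. Its log2 fold change was 0.88 (0.75 to 1.01) in A549 and 0.94 (0.82 to 1.06) in HCC827, and the difference between the lines of -0.06 had a counting interval of -0.23 to 0.12. MLXIPL, which encodes ChREBP, had few reads, with 68.1 normalized counts (78 reads) in A549-vector, 99.6 (87 reads) in A549-myr-AKT1, 19.9 (25 reads) in HCC827-vector and 45.3 (36 reads) in HCC827-myr-AKT1. The log2 fold changes were 0.55 (0.09 to 1.01) and 1.19 (0.41 to 1.99), and at this depth the 2 lines could not be distinguished, with a difference of -0.64 (-1.499 to 0.22). Since mRNA was measured, nuclear entry or activity of either factor is not addressed by these values.

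**Figure D3:**
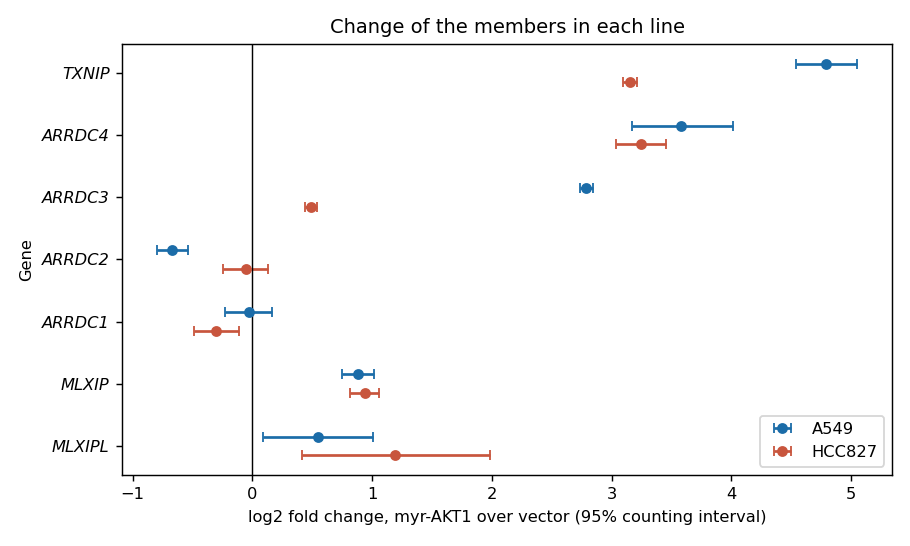
Log2 fold change of myr-AKT1 over vector for each of the 7 genes in A549 (blue) and HCC827 (red), with 95% Clopper-Pearson intervals that cover counting error only. TXNIP is at 4.79 and 3.15, ARRDC4 at 3.58 and 3.24, and the intervals of ARRDC1 in A549 and ARRDC2 in HCC827 include 0.

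Counts over all genes set the scale for these values. In A549, 18688 genes had a mean of at least 10 normalized counts and reads with both vector and myr-AKT1, and 14.8% of them lay above a log2 fold change of 1 and 9.86% below -1. In HCC827, with 17306 genes, these shares were 14.0% and 12.4%. All 7 members met this filter in both lines. Above 1 were TXNIP, ARRDC3 and ARRDC4 in A549 and TXNIP, ARRDC4 and MLXIPL in HCC827, and none was below -1. Above 2 were the same 3 genes in A549, beside 5.52% of all genes, and TXNIP and ARRDC4 in HCC827, beside 4.44%. The choice of the members used this contrast, so nothing is read from their counts. The median over the 7 was 0.88 in A549 and 0.94 in HCC827, beside -0.04 over all genes in each line. TXNIP was number 99 in A549 and number 284 in HCC827 by log2 fold change, and ARRDC4 was number 282 and number 266. Among the 15668 genes counted in both lines, 4.51% were above 1 in both, 4.07% were below -1 in both, and 0.97% were above 2 in both, as TXNIP and ARRDC4 were. Of these genes, 10 others were at least as high as TXNIP in both lines, and 23 others at least as high as ARRDC4.

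**Figure D4:**
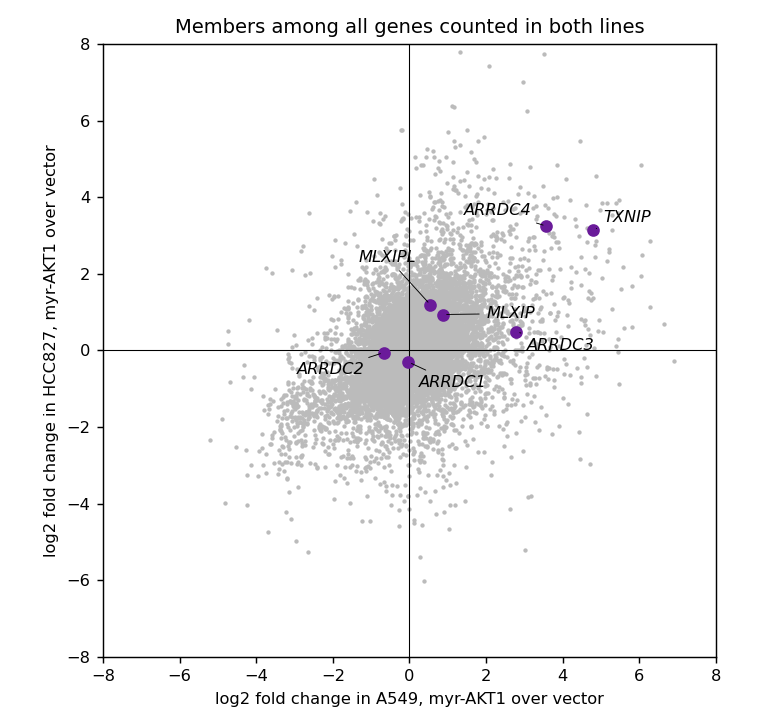
Log2 fold change of myr-AKT1 over vector in A549 (x axis) against HCC827 (y axis) for the 15668 genes counted in both lines (grey, 2 of them outside the axes), with the 7 genes in purple. TXNIP (4.79, 3.15) and ARRDC4 (3.58, 3.24) lie at the upper right edge, ARRDC3 (2.79, 0.49) lies to the right, and the other 4 lie within the cloud.

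The 5 genes whose pair of log2 fold changes lay nearest to that of TXNIP, by Euclidean distance among 12051 genes with a mean of at least 50 normalized counts in both lines, were FGG, VTCN1, OAS2, SERPINB7 and ROS1. FGG, the fibrinogen gamma chain, was closest, at a distance of 0.40, with log2 fold changes of 4.42 in A549 and 2.99 in HCC827. The distances of the other 4 ranged from 0.50 to 0.72. With 2 comparisons per gene, such likeness describes a position in the plot and nothing more.

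Levels between genes were compared per length, as RPKM (reads scaled by the merged exon length of the gene and by the total reads of the library) computed from the recovered reads. ARRDC3 was the most abundant of the 7 mRNAs in A549-vector (18.2 RPKM), A549-myr-AKT1 (128 RPKM) and HCC827-vector (57.2 RPKM). In HCC827-myr-AKT1 TXNIP took first place, with 273 RPKM against 84.9 RPKM for ARRDC3. In A549-vector, TXNIP was in place 5, with 1.09 RPKM, below ARRDC2 (10.01 RPKM), ARRDC1 (3.90 RPKM) and MLXIP (1.71 RPKM), and ARRDC4 was last, with 0.39 RPKM. In A549-myr-AKT1 it moved to place 2, with 30.7 RPKM, close to the 29.1 RPKM of HCC827-vector. MLXIPL was below 1 RPKM in every library, and MLXIP had between 1.71 and 5.67 RPKM, or 3.53 to 14.7 times the MLXIPL level. Neighbors whose Poisson counting intervals overlapped were MLXIPL and ARRDC4 in A549-vector, and ARRDC1, MLXIP and ARRDC2 in HCC827-myr-AKT1. Merged exon length counts every annotated exon, so a gene with long rarely used exons has a lower RPKM than its main transcript would give.

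The makeup of the alpha-arrestin mRNAs also differed. The 5 alpha-arrestins summed to 33.6 RPKM in A549-vector, 174 RPKM in A549-myr-AKT1, 99.8 RPKM in HCC827-vector and 389 RPKM in HCC827-myr-AKT1. TXNIP made up 3.25% of this sum in A549-vector and 17.7% in A549-myr-AKT1, and 29.2% in HCC827-vector and 70.4% in HCC827-myr-AKT1. ARRDC3 made up 54.2% and 73.7% in the A549 libraries, and 57.3% and 21.8% in the HCC827 libraries. ARRDC2 made up 29.7% in A549-vector and at most 4.90% in the other 3. The largest contributor with myr-AKT1 was thus ARRDC3 in A549 and TXNIP in HCC827.

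Vector cells of the 2 lines could be compared after the recovered reads were scaled by size factors over all 4 libraries. This comparison has 1 library a side. The same vector reads are the denominators of the fold changes by which the genes were chosen, so it is not independent of that choice. TXNIP had 96.2 counts on this scale in A549-vector and 2533 in HCC827-vector, 26.3-fold more, a log2 difference of 4.72 (4.47 to 4.98). The A549-myr-AKT1 library, at 2856, was near the HCC827-vector library, and HCC827-myr-AKT1 was at 23281. Log2 differences of HCC827-vector over A549-vector were 2.32 (1.88 to 2.78) for ARRDC4, 1.63 (1.57 to 1.69) for ARRDC3, 0.76 (0.59 to 0.93) for ARRDC1 and 0.70 (0.57 to 0.83) for MLXIP. ARRDC2, at -1.05 (-1.19 to -0.92), and MLXIPL, at -1.36 (-2.08 to -0.70), were lower in HCC827-vector. The lines differ in genotype and origin, which cannot be told apart here.

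Other genes of the pathway were taken from 7 lists fixed by name, with 76 genes in all. Of 64 counted in A549, 9 were above 1 and 2 below -1, beside 14.8% and 9.86% of all genes. Of 61 counted in HCC827, 7 were above 1 and 5 below -1, beside 14.0% and 12.4%. GPD1 in A549 (7.86 normalized counts with vector) and SLC2A3 in HCC827 (8.74 with vector) met the filter only through myr-AKT1. Both stay in these counts. The shares above 1 are near those of all genes, while the shares below -1 are smaller than those of all genes in both lines. Their medians were -0.03 in each line, beside -0.04 over all genes. Among the 59 counted in both lines, MXD1, BHLHE40 and FOXO4 were above 1 in both and none was below -1 in both, beside 4.51% and 4.07% of all genes. Across both lines, a limma fit with cell line as a block and 1 residual degree of freedom called 1.29% of 19314 genes higher and 1.73% lower at an adjusted p under 0.05. Of the 63 list genes in that fit it called 0 (12 at an unadjusted p under 0.05). When every gene with a read was kept, limma called 3.33% of 33056 genes higher and 2.7% lower. Of 72 list genes it called 6 higher (BHLHE40, FOXO4, HK2, MXD1, MXD4 and SCD) and 2 lower (MYC and SMURF2). Among these, HK2 was higher with myr-AKT1 only in A549 (log2 fold change 2.36) and was lower in HCC827 (-0.26). A quasi-likelihood test in edgeR also called 0 (11 unadjusted), and DESeq2 called 5 higher (8 unadjusted), which were BHLHE40, FOXO4, MXD1, MXD4 and SCD, beside 3.22% of all genes higher and 2.68% lower in DESeq2.

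**Figure D5:**
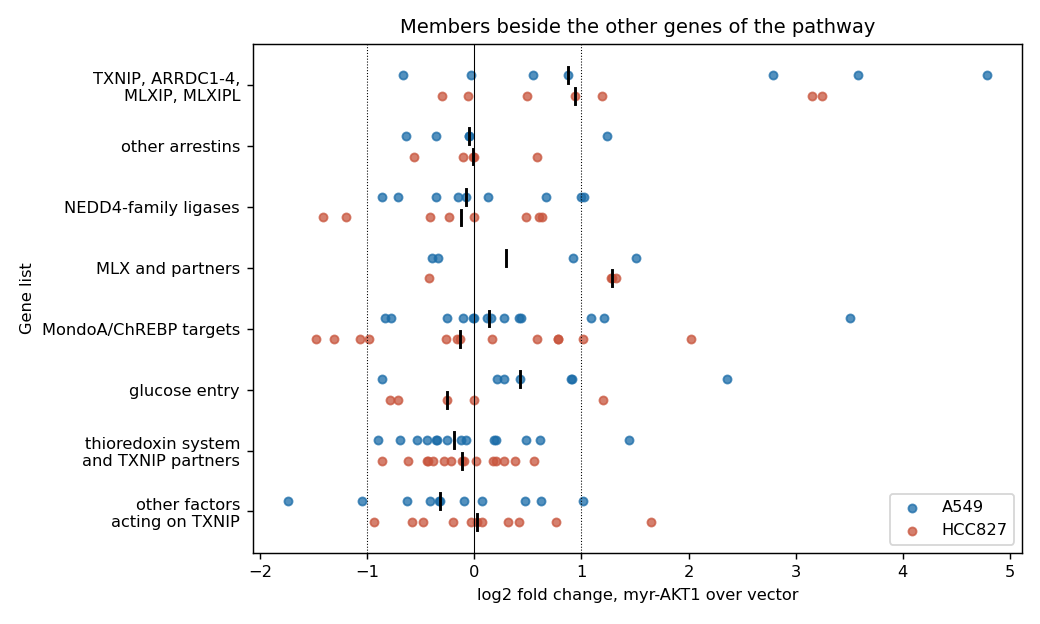
Log2 fold change of myr-AKT1 over vector for each counted gene of the 7 members (top) and of the 7 lists, in A549 (blue) and HCC827 (red), with a black bar at each median and dotted lines at 1 and -1. The list medians lie between -0.32 and 0.42 except for MLX and its partners in HCC827 (1.28), and few list genes reach the values of TXNIP and ARRDC4.

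MLX, the obligate partner of MondoA and ChREBP, was slightly lower with myr-AKT1 in both lines, at log2 fold changes of -0.39 in A549 and -0.42 in HCC827. Of its other partners, MXD1, a repressor that competes with MYC for MAX, had 112 and 318 normalized counts in A549 and 528 and 1291 in HCC827, with log2 fold changes of 1.51 (1.20 to 1.82) and 1.29 (1.15 to 1.43). MXD4 was at 0.92 and 1.28. MNT, another repressor of this network, was at -0.34 (-0.51 to -0.17) in A549 and 1.32 (1.13 to 1.52) in HCC827. Of the 4 genes of this list, 1 was above 1 in A549 and 3 in HCC827, beside 14.8% and 14.0% of all genes.

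Known glucose-responsive targets of MondoA and ChREBP other than TXNIP and ARRDC4 varied. Of 20, 14 were counted in A549, where SCD, GPD1 and BHLHE40 were above 1 and none below -1, with a median of 0.14. In HCC827, 13 were counted, BHLHE40 was above 1, ACACB, ELOVL6 and KHK were below -1, and the median was -0.14. Over all genes, 14.8% were above 1 and 9.86% below -1 in A549, and 14.0% and 12.4% in HCC827. BHLHE40, a clock-linked repressor, had 4862 and 11291 normalized counts in A549 and 2940 and 5953 in HCC827, log2 fold changes of 1.22 (1.17 to 1.26) and 1.02 (0.96 to 1.08). GPD1, which makes glycerol-3-phosphate, was at 3.51 (2.51 to 4.69) in A549, from 7.86 to 89.3 normalized counts, and had 0 and 1 reads in HCC827. In A549 it met the filter only through the myr-AKT1 library, so nothing is read from its place in the count. The genes that, like TXNIP, hold the paired element in their promoter window gave a further set, put together after the windows had been searched. Apart from TXNIP, 15 such genes were counted in each line, and 2 of them were above 1 in A549 (MYL5 and P4HA1) and 2 in HCC827 (GFPT1 and RCN3), shares near the 14.8% and 14.0% of all genes. RAN, a small GTPase of nuclear transport, was below -1 in both lines, at -1.16 and -1.23. GFPT1, the first enzyme of the hexosamine pathway, was at 0.68 in A549 and 1.17 in HCC827.

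For glucose entry and phosphorylation, 1 of 7 counted genes was above 1 in A549 (HK2) and 1 of 5 in HCC827 (SLC2A3). Beside these stand 14.8% and 14.0% of all genes. The list medians were 0.42 and -0.26. HK2, a hexokinase that makes glucose-6-phosphate, had 116 and 597 normalized counts in A549-vector and A549-myr-AKT1, a log2 fold change of 2.36 (2.08 to 2.65), and 1948 and 1632 in the HCC827 libraries, at -0.26 (-0.35 to -0.16). SLC2A3, the glucose transporter GLUT3, had 0.42 (0.37 to 0.48) in A549 and 1.20 (0.01 to 2.46) in HCC827, the latter from 8.74 and 20.1 normalized counts. SLC2A3 thus met the filter in HCC827 only through the myr-AKT1 library, and nothing is read from its place in the count. The transporter most often linked to TXNIP, GLUT1 (SLC2A1, named in addition to the rule), had 2019 and 3805 normalized counts in A549 and 4912 and 2997 in HCC827.

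In the thioredoxin system and among other TXNIP partners, only DDIT4 was past 1, in A549, out of 14 counted genes, and 0 of 15 passed in HCC827 in either direction. Over all genes, 14.8% were above 1 in A549, and 14.0% above 1 and 12.4% below -1 in HCC827. DDIT4, an inhibitor of mTORC1 that complexes with TXNIP, had 2837 and 7719 normalized counts in A549, a log2 fold change of 1.44 (1.38 to 1.50), and 6015 and 4604 in HCC827, at -0.39 (-0.44 to -0.33). TXNRD1, the reductase that recycles thioredoxin, was at -0.90 (-0.92 to -0.87) in A549 and 0.56 (0.53 to 0.58) in HCC827. TXN, the thioredoxin that TXNIP binds (also named in addition to the rule), was at -0.34 and -0.43.

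For the ubiquitin ligases that alpha-arrestins recruit, 1 of 9 was above 1 in A549 (HECW2), beside 14.8% of all genes. In HCC827, 2 of 8 were below -1 (SMURF2 and HECW2), beside 12.4% of all genes. SMURF2, a ligase best known for acting on TGF-beta signaling, had log2 fold changes of -0.35 (-0.45 to -0.26) and -1.41 (-1.503 to -1.32). HECW2 was at 1.03 (0.78 to 1.28) in A549 and -1.20 (-1.53 to -0.88) in HCC827. The other arrestins included ARRB1 (beta-arrestin-1), at 1.24 (1.11 to 1.36) in A549 and -0.01 (-0.15 to 0.14) in HCC827, and ARRB2 (beta-arrestin-2), at -0.64 (-0.78 to -0.49) and -0.01 (-0.24 to 0.21). Of the 8 in this list, 5 were counted in each line. ARRDC5, the remaining alpha-arrestin, had 0 reads in all 4 libraries.

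Among 11 other transcription factors known to act on TXNIP, FOXO4 was above 1 in both lines, and MYC and NFYC were below -1 in A549 only. Over all genes, 4.51% were above 1 in both lines and 9.86% were below -1 in A549. FOXO4 had 165 and 334 normalized counts in A549 and 184 and 576 in HCC827, log2 fold changes of 1.02 (0.75 to 1.29) and 1.65 (1.42 to 1.88). FOXO1 was at 0.47 and 0.31, and FOXO3 at 0.62 and 0.76. MYC had 5331 and 1595 normalized counts in A549, a log2 fold change of -1.74 (-1.83 to -1.66), and 4302 and 3741 in HCC827, at -0.20 (-0.27 to -0.14).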

How the data were processed

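One stranded RNA-seq library was made for vector and for myr-AKT1 cells of each line. Poly(A) selection is described in the paper and depletion of ribosomal RNA in the labels. Adapter trimming, mapping to hg38 with Bowtie2 and counting with HTSeq were done by the authors. The deposited signal, which the Methods call RPKM, is a read count divided by one size factor per library, set within each cell line. Whole reads were obtained from the value that 1 read has in each library, and values within 0.001 of a whole number counted as whole. That held for all genes with reads but 1 in each vector library (26983 of 26984 and 25879 of 25880, and 100% in the others). Groups were taken from the sample titles.

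Of 60558 identifiers, 60261 were named from GENCODE release 44 on GRCh38. The members and lists were chosen with earlier results of these data known. Log2 fold changes are ratios of deposited values, no pseudocount being added, and their 95% intervals are Clopper-Pearson. Genes with a mean of at least 10 and at least 1 read in both libraries were counted. List genes were named if past 1 or -1 in the same direction in both lines (at most 4), or else by the largest change until 2 were named. Other list genes and paired-element genes in the text were added after their values were seen. A list gene whose result is not reported here still enters the counts and medians of its list. Across both lines, limma with a trend was fitted on log2(value + 1) for genes kept by edgeR's filterByExpr, with Benjamini-Hochberg adjustment. On the recovered reads edgeR called 196 higher and 228 lower genes. Intervals and fits were tested on simulated data. Alternatives were other scalings, filters, thresholds, pseudocounts, tools and no block. Protein identity, also planned, is not analysed here. Tests were run with limma 3.58.1, DESeq2 1.42.0 and edgeR 4.0.16 under R 4.3.3, and intervals with scipy 1.17.1 under Python 3.11.15.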

Additional observations from a re-analysis of the deposited data

Results flagged for a closer look

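No library group holds enough samples for a check of outlying samples. Of the genes named, 8 were higher with myr-AKT1 in one line and lower in the other, each beyond its 95% counting interval. With 1 library per condition, these differences were not tested. None of the 8 is TXNIP, an ARRDC gene, MLXIP or MLXIPL. HECW2 was at 1.03 in A549 and -1.20 in HCC827, and MNT at -0.34 and 1.32. HK2 was at 2.36 in A549 and -0.26 in HCC827, and DDIT4 at 1.44 and -0.39. TXNRD1 was at -0.90 in A549 and 0.56 in HCC827, and SLC2A1 at 0.91 and -0.71. Of the genes used to check the labels, KRT19 was at 2.65 in A549 and -0.75 in HCC827, and EGFR at 0.17 and -1.17.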

How the results depend on the processing

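With 1 library per condition, leaving out a library leaves no residual degree of freedom and was not run. No paired analysis was possible because the labels give no replicate numbers, apart from the block by cell line. Of 56 recomputed member values, 52 stayed within their counting interval, and the largest move was 0.10 on the log2 scale. With total reads, TXNIP in HCC827 was 3.23 and ARRDC3 in HCC827 was 0.57. With size factors over all 4 libraries, which shifted the median of all A549 genes by 0.10, ARRDC3 was 2.89 in A549 and 0.54 in HCC827. The sign changed only where the interval includes 0, to 0.07 for ARRDC1 in A549 with those factors and to 0.02 for ARRDC2 in HCC827 with total reads. Counts of genes depended on low values. Without the filter, 4433 genes were above 1 and 3009 below -1 in A549, and 3975 above 1 in HCC827, and with a mean of at least 50, 1570 and 1103 in A549 and 1342 and 1348 in HCC827. Past 2 instead of 1 were 1032 and 519 genes in A549 and 768 and 519 in HCC827, and of the list genes 2 and 0 in A549 and 1 and 0 in HCC827. With size factors over all 4 libraries 1 list gene was below -1 in A549. In the fit across both lines, DESeq2 called 621 higher and 518 lower genes, and limma called 1101 and 894 when every gene with a read was kept. It called 0 and 0 with a pseudocount of 0.1 (3184 genes at an unadjusted p under 0.05) and 0 and 0 without the cell line block (631 unadjusted). The cause was not tested.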

Other observations

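PRDX2, a peroxiredoxin that is reduced by thioredoxin and stood in the list of the thioredoxin system, was listed at 0 reads in both A549 libraries, while the HCC827 libraries held 2405 and 1978 normalized counts. It therefore entered no count in A549. The lncRNA gene ARRDC3-AS1 had 76.0 and 99.6 normalized counts in A549-vector and A549-myr-AKT1 and 61.2 and 34.0 in HCC827-vector and HCC827-myr-AKT1, so it was not higher with myr-AKT1 in HCC827, where ARRDC3 was at 0.49 on the log2 scale.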
